A study of Homo sapiens with 10 samples.

Results

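Mitochondrial ribosomal proteins were followed at the mRNA level in U2OS cells, a human osteosarcoma line, from RNA sequencing of 10 ribosomal RNA-depleted libraries. Members were all rows annotated as protein-coding whose symbol begins with MRPL or MRPS and a digit, which gave 78 of the 60671 genes in the deposited table, 49 named for the large subunit (MRPL) and 29 for the small subunit (MRPS). The groups were EBSS+VBL+Gln+Ars, called glutamine-recovered here (3 libraries), EBSS+VBL+Ars, called starved (3 libraries), Ars (3 libraries) and untreated cells (1 library). EBSS is a salt and glucose medium without amino acids or serum, VBL is vinblastine, which disrupts microtubules, Gln is added glutamine, and Ars is sodium arsenite. Starved and glutamine-recovered cells spent 18 h in EBSS with VBL, without or with glutamine, and all 3 replicated groups then received arsenite for 50 min, so no starved library lacks arsenite. The loss of amino acids, the loss of serum and the addition of VBL came together in the starved cells and cannot be told apart. Whether the libraries of a group are separate cultures is not said in the sources used here, and p-values therefore measure the spread between libraries, which may be technical.

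The mitochondrial ribosome translates the few mRNAs encoded by mitochondrial DNA, all of which make subunits of the respiratory chain and the ATP synthase. Its ribosomal RNAs come from mitochondrial DNA, whereas all of its proteins are encoded in the nucleus, made by cytosolic ribosomes and imported. Many of these proteins descend from bacterial ribosomal proteins and others were added during the evolution of mitochondria. The large subunit forms the peptide bond and holds the exit tunnel, and the small subunit binds and decodes the mRNA. Symbols do not always match the subunit: MRPS18A and MRPS30 proteins sit in the large subunit, and MRPS36 is now placed in the 2-oxoglutarate dehydrogenase complex, although all 3 are counted under their symbols here.

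Reads assigned to genes ranged between 3538017 and 7019842 a library, and the members took 6956 to 22852 of them. The signal recognition particle RNA gene RN7SL1 took 7.88% to 20.2% of reads. As a check of the cell line, collagen type I gene COL1A1 was abundant in every library, and the summed level of 7 osteoblast lineage markers was 8392 to 8847 normalized counts in glutamine-recovered cells, 7350 to 8101 in starved cells, 15172 to 15895 in Ars cells and 6592 in the untreated library. COL1A1 and SPARC carried this sum, and the list did not move as a whole: of the 4 markers tested, 1 was called higher (ALPL, log2 difference 1.95) and 2 lower in starved than in Ars cells, while COL1A2, SP7 and BGLAP were too low to test. Epithelial markers, almost entirely the keratin KRT18, summed to 4169 to 4650 normalized counts in glutamine-recovered cells, 6391 to 6927 in starved cells, 3444 to 3726 in Ars cells and 4104 in the untreated library. The part of these markers in the results was not tested. Blood markers summed to at most 2.79 normalized counts in any library. Values are the authors' normalized counts, which are relative to the rest of the library, so less of an mRNA per cell and fewer cells that make it cannot be told apart.

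Levels of the members spanned a wide range. Summed over the 78 genes, the normalized counts were 13852, 12726 and 13302 in glutamine-recovered cells, 12809, 12146 and 11984 in starved cells, 15428, 14317 and 14721 in Ars cells and 14601 in the untreated library. MRPL37, a mitochondria-specific protein of the large subunit, was the most abundant member, at 654, 697 and 694 normalized counts in glutamine-recovered cells, 736, 765 and 802 in starved cells, 774, 804 and 728 in Ars cells and 810.2 in untreated cells. Its starved and Ars libraries overlapped. MRPS16, a bacterial homolog of the small subunit, had 636, 586 and 672 normalized counts in glutamine-recovered cells, 649, 567 and 591 in starved cells, 752, 689 and 656 in Ars cells and 476 in untreated cells. MRPL14, a bacterial homolog of the large subunit, had 543, 590.0 and 504 normalized counts in glutamine-recovered cells, 609.9, 697 and 744 in starved cells, 588, 624 and 599.5 in Ars cells and 673 in untreated cells. Per kilobase of transcript, MRPL14 ranked first, at 638 normalized counts per kb over the 9 replicated libraries, followed by MRPL37 at 498 and MRPS2 at 411.

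Genes were tested if the 9 replicated libraries averaged 10 normalized counts or more, a limit that 75 members passed, 47 of the large and 28 of the small subunit. The other 3 were measured too sparsely. MRPL53 and MRPL46 were tested only in the fit without a filter on low values. MRPS24 also entered the fit of glutamine-recovered and starved cells alone, where it was not called. MRPS24 had 11.9, 13.1 and 11 normalized counts in glutamine-recovered cells, 5.62, 8.73 and 12.2 in starved cells, 2.70, 1.86 and 5.87 in Ars cells and 6.66 in untreated cells, and 23.2% of its exonic bases are shared with a read-through transcript on the same strand. Its glutamine-recovered libraries all lay above its Ars libraries, and without the filter it was called higher there (log2 difference 1.63 ± 0.49, limma adjusted p = 0.0169). MRPL53 had between 0 and 5.24 normalized counts in the 10 libraries, and 72.9% of its exonic bases are shared with CCDC142 on the same strand. MRPL46 had 5.41, 12 and 7.54 normalized counts in glutamine-recovered cells, 14.6, 6.98 and 4.42 in starved cells, 12.2, 10.2 and 7.55 in Ars cells and 10.5 in untreated cells. Among the members tested, the coefficient of variation between the libraries of a group had a median of 10.6% in glutamine-recovered cells, 15.3% in starved cells and 9.4% in Ars cells, so starved libraries were the most scattered for these genes.

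Whether starvation with VBL altered the mitoribosomal mRNAs was asked by comparing starved with Ars cells. No member was called higher and 21 of the 75 tested (28.0%) were called lower, at an adjusted p under 0.05 and at least a 1.5-fold difference, where 21.5% of all 12971 genes tested were called higher and 21.3% lower (limma on log2 of the normalized count plus 1, Benjamini-Hochberg over all genes tested). With equal library totals 35 members (46.7%) were lower, beside 28.0% of all genes, and with equal totals over nuclear protein-coding genes 33 (44%), beside 26.5%, with 0 higher under both. The median of all genes then lay at −0.16 and −0.12. At an unadjusted p under 0.05, 5 of the 75 members were higher and 37 lower, beside 4024 and 3866 of all 12971 genes. On the recovered reads edgeR and DESeq2 also called 0 higher, each with 25 lower that included the same 21 genes. Of the 21, 17 were among the 47 large subunit genes and 4 among the 28 small subunit genes, a difference between subunits that was not tested. The median log2 difference was −0.51 in large and −0.21 in small subunit genes, against 0.02 over all genes tested, and it was below 0 in 58 of the 75 members. Starved replicate 1 held the highest of the 3 starved values for 41 of the 75 members. Replicate 1 was also most often the highest in glutamine-recovered cells (38 members) and Ars cells (34 members). Without starved replicate 1, 28 members were lower and 1 was higher (MRPL38). Over all genes that fit called 2939 lower and 2893 higher, beside 2757 and 2791 with every library.

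**Figure D1:**
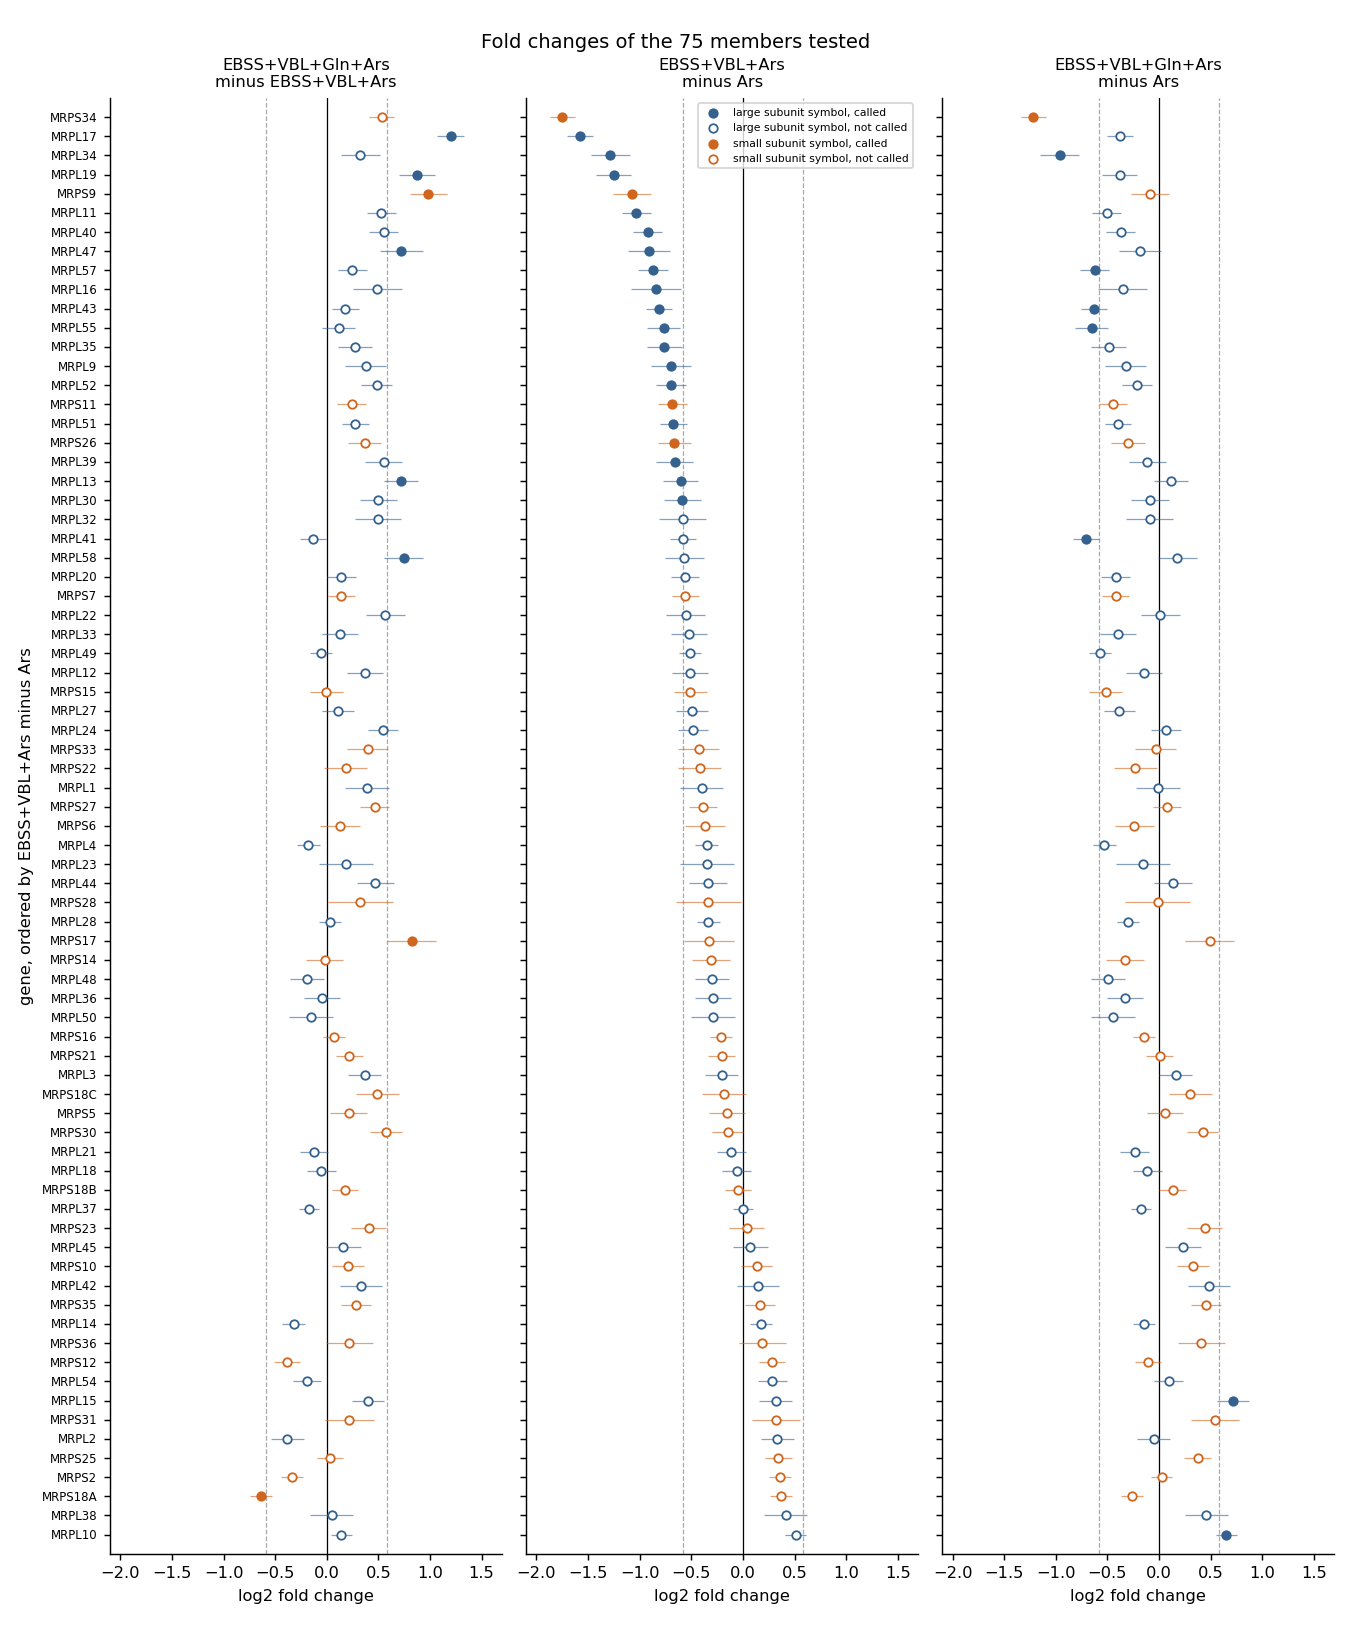
Log2 fold changes of the 75 members tested (x axis) with their standard errors as bars, in glutamine-recovered minus starved cells (left), starved minus Ars cells (middle) and glutamine-recovered minus Ars cells (right), with genes ordered down the page by the middle panel. Filled points were called (adjusted p under 0.05 and at least 1.5-fold, dashed lines). The middle panel has 21 filled points, all below 0, and the left panel has 7 above 0 and 1 below.

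The largest fall was in MRPS34, a mitochondria-specific protein that stabilizes the small subunit and whose loss causes a childhood mitochondrial disease. Normalized counts of MRPS34 were 109, 120.5 and 105 in starved cells, against 387, 356 and 387 in Ars cells. All starved libraries lay below all Ars libraries, and the log2 difference was −1.75 ± 0.12 (SE, n = 3 each, limma adjusted p = 6.39e-10). MRPS34 (chromosome 16, 1771890 to 1773150, minus strand) shares 31.2% of its exonic bases with EME2 on the other strand, and EME2 itself differed by 0.55 on the log2 scale (limma adjusted p = 0.0208), the opposite sign, although under the 1.5-fold minimum. Since strand use in the authors' counting is not given in the sources used here, reads of the shared bases cannot be assigned to either gene with certainty.

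Next came MRPL17, whose bacterial counterpart lies near the exit of the peptide tunnel. MRPL17 had 82.0, 80.3 and 87.3 normalized counts in starved cells, against 272, 232 and 248 in Ars cells (log2 difference −1.58 ± 0.13, limma adjusted p = 5.83e-09). Its 3 starved libraries agreed closely and lay well below every Ars library. MRPL34, a small bacterial-type protein of the large subunit, had 31.4, 31.4 and 27.6 normalized counts in starved cells, against 74.9, 71.7 and 78.0 in Ars cells (−1.29 ± 0.19, limma adjusted p = 1.15e-05). MRPL19, a bacterial homolog at the interface between subunits, had 64.0, 47.1 and 44.2 normalized counts in starved cells, against 136, 107 and 128 in Ars cells (−1.25 ± 0.17, limma adjusted p = 5.42e-06). For both genes the groups did not overlap, and starved replicate 1 was the highest starved library for MRPL19.

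The next calls in order of size were arranged in much the same way. MRPS9, whose bacterial counterpart reaches towards the tRNA in the decoding site, had 76.4, 52.4 and 46.4 normalized counts in starved cells, against 123, 102 and 141 in Ars cells (log2 difference −1.07 ± 0.18, limma adjusted p = 6.16e-05). MRPL11, part of the stalk base where GTPase factors dock, had 165, 194 and 138 normalized counts in starved cells, against 359, 317 and 336 in Ars cells (−1.03 ± 0.14, limma adjusted p = 4.25e-06). MRPL40, a mitochondria-specific protein encoded in the region deleted in DiGeorge syndrome, had 142, 112 and 114 normalized counts in starved cells, against 245, 201.2 and 251 in Ars cells (−0.92 ± 0.14, limma adjusted p = 1.95e-05). Each of these 3 genes had all starved libraries below all Ars libraries. MRPL47, a bacterial homolog near the exit tunnel, had 131, 68.1 and 75.1 normalized counts in starved cells, against 164, 139 and 199 in Ars cells (−0.91 ± 0.21, limma adjusted p = 0.00096). Here replicate 1 of the starved cells lay just below the lowest Ars library.

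The other 13 genes called lower were MRPL57, MRPL16, MRPL43, MRPL55, MRPL35, MRPL9, MRPL52, MRPS11, MRPL51, MRPS26, MRPL39, MRPL13 and MRPL30, with log2 differences between −0.87 and −0.59. MRPL13 at −0.60 and MRPL30 at −0.59 lay just inside the 1.5-fold limit of 0.585, and MRPL32 at −0.58 and MRPL41 at −0.58 just outside it. In all, 15 members passed the adjusted p and were lower by less than 1.5-fold, and 4 did so in the higher direction. At the adjusted p alone, 4 of the 75 members were higher and 36 lower, beside 3742 and 3564 of all 12971 genes. The largest of these 4 was MRPL10, which carries the stalk copies of MRPL12, with 482, 452 and 485 normalized counts in starved cells, against 339, 342 and 314 in Ars cells (0.51 ± 0.10, limma adjusted p = 0.000319). The groups of MRPL10 did not overlap. The other 3 were MRPS18A at 0.37, MRPS2 at 0.36 and MRPS25 at 0.34 on the log2 scale, all with MRPS symbols.

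**Figure D2:**
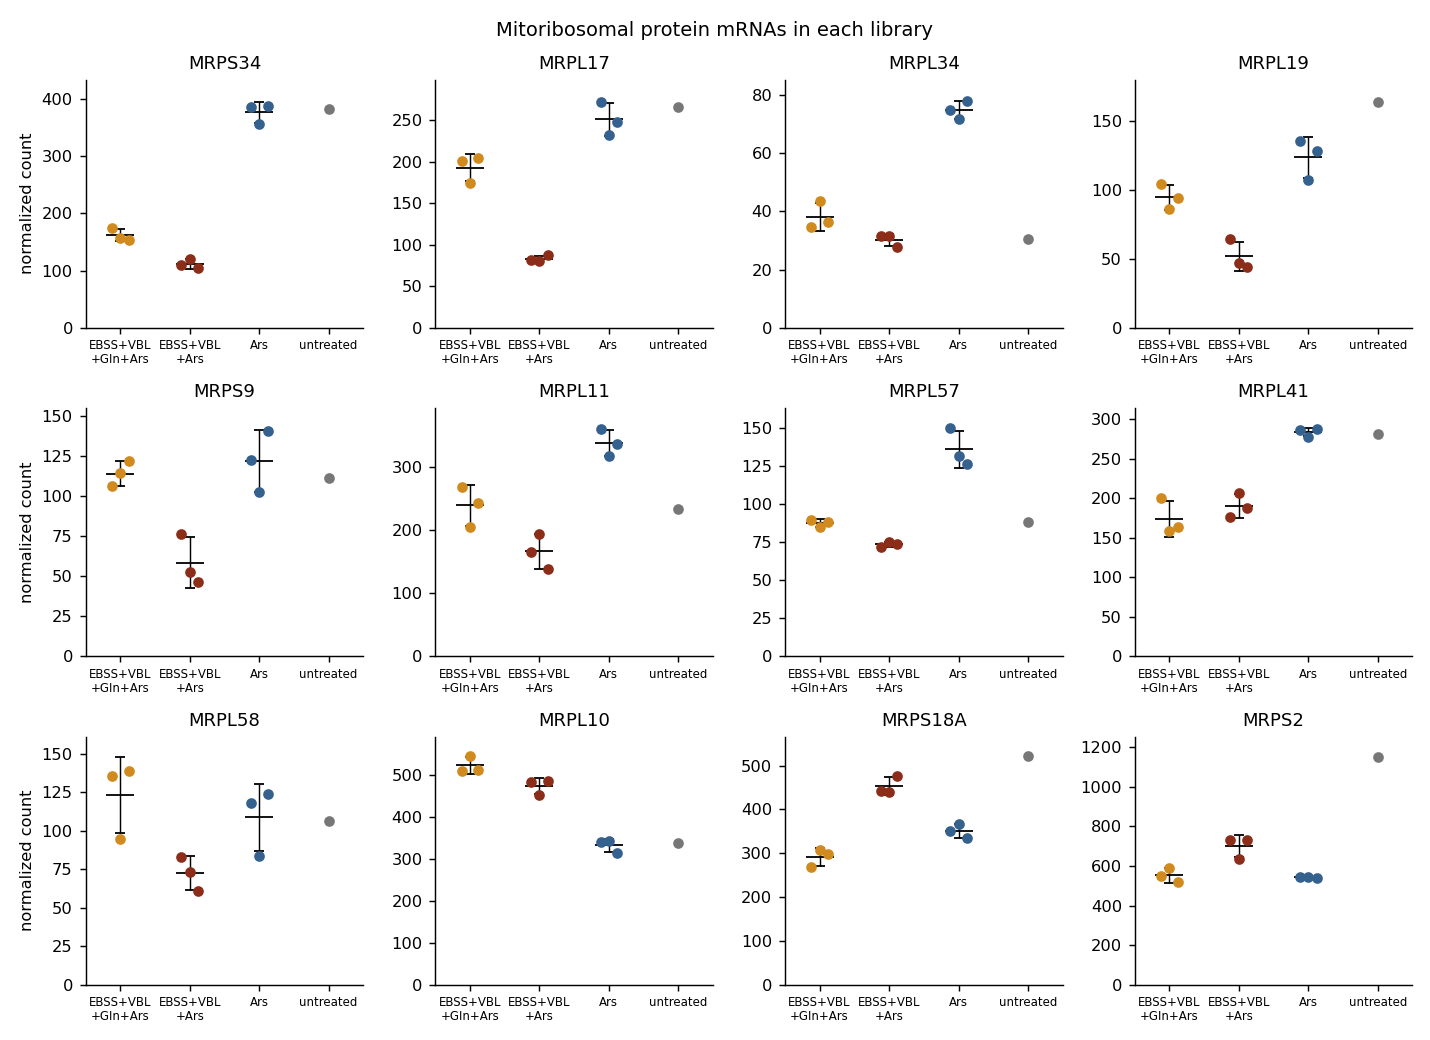
Normalized counts (y axis, from 0) of 12 members in each library, with points for libraries and bars for the mean and SD of 3 libraries, for glutamine-recovered, starved, Ars and untreated cells from left to right. MRPS34 sits between 105 and 120.5 in starved cells and between 356 and 387 in Ars cells, whereas MRPL10 runs the other way.

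Promoters of some members called lower in starved than in Ars cells are shown as RefSeq gives them for GRCh38.p14. They span 250 bases before to 50 after the start, and 69 of the 78 members had an entry. Capitals mark matches to the ETS core (ccggaag) or the NRF1 core (gcgcatgcg), letters bound by factors known for driving nuclear genes of mitochondrial function. MRPS34 is shown as the largest fall (chr16:1773085-1773384, minus strand), MRPL17 as the largest fall that was also called higher with glutamine (chr11:6683291-6683590, minus strand), and MRPL47 as a member that starts close to another mitochondrial gene (chr3:179604589-179604888, minus strand).
MRPS34: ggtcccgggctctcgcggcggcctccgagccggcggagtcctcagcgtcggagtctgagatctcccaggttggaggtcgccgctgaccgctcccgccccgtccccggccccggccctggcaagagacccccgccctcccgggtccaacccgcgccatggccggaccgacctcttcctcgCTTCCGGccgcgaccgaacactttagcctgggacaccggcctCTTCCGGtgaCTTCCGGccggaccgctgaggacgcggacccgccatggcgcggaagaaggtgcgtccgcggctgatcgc
MRPL17: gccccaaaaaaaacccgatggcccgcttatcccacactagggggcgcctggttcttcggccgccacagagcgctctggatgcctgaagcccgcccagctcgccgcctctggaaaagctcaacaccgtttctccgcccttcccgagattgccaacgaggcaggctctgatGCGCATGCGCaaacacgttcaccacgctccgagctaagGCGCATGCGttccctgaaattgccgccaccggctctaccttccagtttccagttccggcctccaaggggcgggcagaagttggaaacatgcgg
MRPL47: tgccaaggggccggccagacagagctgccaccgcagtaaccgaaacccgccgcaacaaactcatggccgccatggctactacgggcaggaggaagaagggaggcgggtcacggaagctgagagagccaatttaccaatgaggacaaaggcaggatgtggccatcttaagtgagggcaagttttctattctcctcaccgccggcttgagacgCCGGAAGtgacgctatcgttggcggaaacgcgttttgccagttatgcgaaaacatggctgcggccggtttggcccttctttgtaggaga

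MRPS34 held 3 ETS matches, beginning at positions −71, −29 and −19 from the start. MRPL17 held 3 NRF1 matches, at −81, −80 and −43, the first 2 of them overlapping matches on opposite strands, and MRPL47 held 1 ETS match at −39. Matches to 5 motifs were counted on both strands. The ETS core was present in 29 of the 69 member promoters (42.0%), against 14.4% of 15149 protein-coding promoters of the same length. The YY1 letters (aagatggcg) were in 13 member promoters (18.8%, against 2.81%) and the NRF1 core in 3 (4.35%, against 2.73%). The E-box (cacgtg) was in 6 (8.70%, against 8.89%), and no member promoter held the ATF4-type letters (tgatgcaa, against 0.673%). Of the 19 called-lower members with an entry, 9 held the ETS core and 1 the YY1 letters, against 20 and 12 of the other 50. MRPL19 and MRPS9 fell more than MRPL47 and were also called higher with glutamine, but their promoters held none of the 5 and are not shown. The 3 promoters shown therefore all hold a match through this choice. A match is a description of letters and no evidence of binding.

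A gene starting on the other strand within 1000 bases upstream was found for 17 of the 78 members (21.8%), against 11.4% of protein-coding genes tested. In 13 of these pairs both genes were tested. In starved against Ars cells the member was called lower in 4 of the 13, the neighbour lower in 4 and higher in 2, and both were lower in 2, where 21.3% of all genes tested were lower and 21.5% higher. The pairs with both lower are given here. NDUFB5, a respiratory complex I subunit that starts 41 bases from MRPL47, had 73.0, 40.2 and 65.2 normalized counts in starved cells, against 93.8, 97.8 and 108 in Ars cells (log2 difference −0.78 ± 0.20, limma adjusted p = 0.00295). SKA3, a kinetochore gene next to MRPL57, differed by −1.32 (limma adjusted p = 9.01e-05). MRPL43 showed the opposite arrangement with TWNK, the mitochondrial DNA helicase, whose exons overlap it on the other strand over 149 bases. TWNK was higher in starved cells (log2 difference 1.58, limma adjusted p = 5.79e-08) and MRPL43 lower (−0.81, limma adjusted p = 2.51e-05). MRPL43 also shares 1215 bases with SEMA4G on the other strand, which was not called (−0.24). Other called-lower members overlap protein-coding partners on the other strand, and these partners were mixed. PELI3 with MRPL11 (−0.72), MTBP with MRPL13 (−0.64, over 3 shared bases) and GCFC2 with MRPL19 (−0.99) were called lower too. ABHD8 with MRPL34 (−0.33), ACTL6A with MRPL47 (−0.00) and NCAPD2 with MRPL51 (−0.24) were not called, and OAZ3 with MRPL9 was not tested.

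Whether glutamine altered the members in starved cells was asked by comparing glutamine-recovered with starved cells. With glutamine, 7 of the 75 members were called higher (9.33%, against 8.45% of all genes tested) and 1 was called lower (1.33%, against 8.52%). The 7 were MRPL17, MRPS9, MRPL19, MRPS17, MRPL58, MRPL47 and MRPL13, so 5 large and 2 small subunit genes. In the authors' scaling the share of higher calls was close to the background. The median log2 difference was 0.22, against 0.00 over all genes tested, and it was above 0 in 58 of the 75 members. These counts depended on scaling. With libraries set to equal totals, 31 members (41.3%) were higher, beside 22% of all genes, and 0 lower, beside 2.52%. With equal totals over nuclear protein-coding genes, 23 (30.7%) were higher, beside 16.8%, and 0 lower, beside 3.85%. The median of all genes then lay at 0.29 and 0.20. The member counts also depended on single libraries, with 19 higher and 1 lower without starved replicate 1, 14 higher and 1 lower without glutamine-recovered replicate 2, and 5 higher and 0 lower without glutamine-recovered replicate 1. Shares over all genes are not given for these fits, so a shift of all genes cannot be told from one of the members.

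MRPL17 rose the most, with 200.2, 174 and 204 normalized counts in glutamine-recovered cells, against 82.0, 80.3 and 87.3 in starved cells (log2 difference 1.20 ± 0.13, limma adjusted p = 5.53e-06). MRPS9 had 106, 114 and 122 normalized counts with glutamine, against 76.4, 52.4 and 46.4 in starved cells (0.98 ± 0.18, limma adjusted p = 0.000698). MRPL19 had 104, 86.0 and 93.9 normalized counts with glutamine, against 64.0, 47.1 and 44.2 in starved cells (0.87 ± 0.17, limma adjusted p = 0.00116). In all 3 genes every glutamine-recovered library lay above every starved library, and all 3 were also among the largest falls of starved cells. Both comparisons use the same starved libraries.

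MRPS17, a bacterial homolog that binds the small ribosomal RNA early in assembly, had 54.1, 51.2 and 38.4 normalized counts with glutamine, against 25.8, 27.9 and 25.4 in starved cells (log2 difference 0.82 ± 0.24, limma adjusted p = 0.0156). This gene shares 22.4% of its exonic bases with another gene on the same strand, and its call was lost without glutamine-recovered replicate 1 or 2. MRPL58, a peptidyl-tRNA hydrolase built into the large subunit that can free stalled ribosomes, had 135, 94.7 and 139 normalized counts with glutamine, against 83.1, 73.3 and 60.8 in starved cells (0.75 ± 0.19, limma adjusted p = 0.00653). MRPL13, a bacterial homolog of the large subunit, had 158, 153 and 154 normalized counts with glutamine, against 121, 87.3 and 78.4 in starved cells (0.72 ± 0.17, limma adjusted p = 0.00364). The glutamine-recovered libraries of MRPL58 and MRPL13 all lay above the starved ones. MRPL47 had 168, 124 and 147 normalized counts with glutamine, against 131, 68.1 and 75.1 in starved cells (0.72 ± 0.21, limma adjusted p = 0.0134), with starved replicate 1 above the lowest glutamine-recovered library, and its call was lost without starved replicate 2 or 3 or without glutamine-recovered replicate 1. Its neighbour NDUFB5 had 101, 71.8 and 93.9 normalized counts with glutamine and was called higher as well (0.60 ± 0.20, limma adjusted p = 0.0327).

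MRPS18A, a relative of MRPS18B and MRPS18C that belongs to the large subunit, was the only member called lower with glutamine. MRPS18A had 268, 308 and 299 normalized counts in glutamine-recovered cells, against 443, 440.0 and 476 in starved cells (log2 difference −0.63 ± 0.11, limma adjusted p = 0.000342). The groups did not overlap, although the difference fell below 1.5-fold under each other scaling tried. Of the exonic bases of MRPS18A, 50.9% are shared with RSPH9 on the other strand. Its 2 paralogs were not called: MRPS18B, of the small subunit, had 355, 341 and 368 normalized counts with glutamine, against 366, 271 and 310.5 in starved cells, and MRPS18C had 101, 87.1 and 70.6, against 73.0, 47.1 and 64.1. MRPS30, the other large subunit protein with an MRPS symbol, had 247, 194 and 219 normalized counts with glutamine, against 181, 133 and 131 in starved cells (0.57 ± 0.15, limma adjusted p = 0.00886), just under the 1.5-fold minimum.

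Levels in glutamine-recovered cells were also set against Ars cells, which had neither starvation nor VBL. Of the 75 members, 2 were called higher (2.67%, against 16.5% of all genes tested) and 6 lower (8.0%, against 15.3%), so both shares lay under the background. The median log2 difference was −0.22 in large and −0.00 in small subunit genes, against 0.02 over all genes tested. With equal library totals the split changed to 4 higher (5.33%, beside 20.3% of all genes) and 3 lower (4%, beside 12.3%). The median was then −0.11 in large and 0.10 in small subunit genes, against 0.12 over all genes. Of the 21 genes lower in starved than in Ars cells, 20 had a glutamine-recovered mean between the other 2 means and MRPL13 had a mean above that of Ars cells. Among the 21, 5 were called higher with glutamine, 5 were still called lower than in Ars cells and 11 were neither, and these counts share the starved and Ars libraries. The 21 were picked for starved values under Ars values, which by itself favours a glutamine-recovered mean between them. Shares over all genes called lower are not given here, so these counts have no background.

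MRPS34 remained the lowest against Ars cells, with 174, 157 and 154 normalized counts in glutamine-recovered cells, against 387, 356 and 387 in Ars cells (log2 difference −1.22 ± 0.12, limma adjusted p = 1.63e-07). MRPL34 had 34.6, 43.5 and 36.3 normalized counts, against 74.9, 71.7 and 78.0 in Ars cells (−0.96 ± 0.19, limma adjusted p = 0.000382). In both genes the glutamine-recovered libraries were nearer to the starved than to the Ars libraries. MRPL41, a mitochondria-specific protein also described as a promoter of apoptosis, had 200.2, 158 and 164 normalized counts in glutamine-recovered cells, against 286, 278 and 288 in Ars cells (−0.71 ± 0.13, limma adjusted p = 0.000137), and 176, 206 and 188 in starved cells. Its glutamine-recovered and starved libraries overlapped.

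The other lower calls were in MRPL55, a bacterial homolog, and in MRPL43 and MRPL57, which are mitochondria-specific, all of the large subunit. MRPL55 had 110.4, 99.1 and 80.9 normalized counts in glutamine-recovered cells, against 141, 168 and 146 in Ars cells (log2 difference −0.65 ± 0.16, limma adjusted p = 0.00268). MRPL43 had 186, 161 and 188, against 290.3, 273 and 267 (−0.63 ± 0.13, limma adjusted p = 0.000503). MRPL57 had 89.8, 84.9 and 88.4, against 149.9, 131 and 127 (−0.62 ± 0.14, limma adjusted p = 0.0015). These 3 lay close to the 1.5-fold limit and each fell under it with equal library totals. The 2 higher genes were both bacterial homologs: MRPL10 had 509.7, 545 and 511 normalized counts, against 339, 342 and 314 in Ars cells (0.65 ± 0.10, limma adjusted p = 3.84e-05), and MRPL15 had 256, 159 and 193, against 126, 114 and 123 (0.72 ± 0.16, limma adjusted p = 0.00105). The MRPL15 call was lost without glutamine-recovered replicate 1, its highest library.

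Summed levels by subunit gave the same order of groups for the large subunit. The 49 MRPL genes summed to 8564, 7822 and 8223 normalized counts in glutamine-recovered cells, 7523, 7538 and 7341 in starved cells, 9769, 9116 and 9430 in Ars cells and 8760.5 in the untreated library. None of these groups overlapped. The 29 MRPS genes summed to 5289, 4904 and 5078.5 normalized counts in glutamine-recovered cells, 5286, 4608 and 4644 in starved cells, 5659, 5201 and 5292 in Ars cells and 5841 in the untreated library, where starved replicate 1 lay among the other groups. As a ratio of the MRPL to the MRPS sum, glutamine-recovered cells had 1.62, 1.6 and 1.62, starved cells 1.42, 1.64 and 1.58, Ars cells 1.73, 1.75 and 1.78 and the untreated library 1.5. Starved replicate 1 therefore stood apart from its group for the balance of the subunits.

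**Figure D3:**
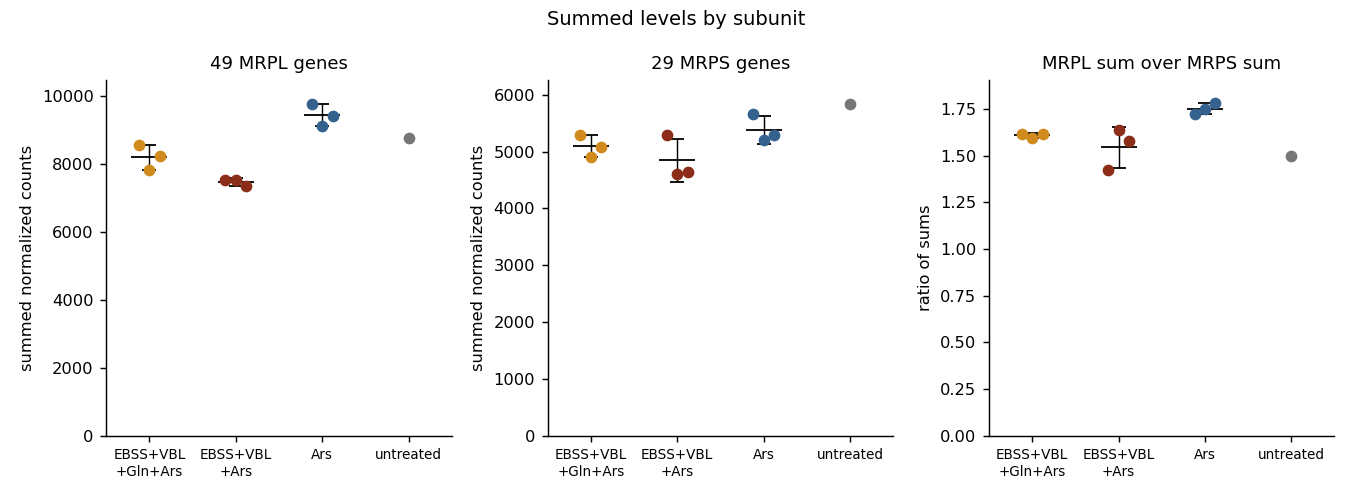
Summed normalized counts of the 49 MRPL genes (left) and the 29 MRPS genes (middle), and the ratio of the sums (right), in each library (points), with the mean and SD of 3 libraries as bars and axes from 0. The MRPL sum is 7341 to 7538 in starved cells and 9116 to 9769 in Ars cells, and 1 starved library has a ratio of 1.42.

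By origin, and beside the 21.3% of all genes tested that were called lower, 11 of the 30 bacterial homologs of the large subunit tested were called lower in starved than in Ars cells (median log2 difference −0.52), against 6 of the 19 mitochondria-specific ones (−0.34), MRPS18A and MRPS30 being counted with the latter group. In the small subunit 2 of 15 bacterial homologs (−0.31) and 2 of 10 mitochondria-specific proteins (−0.22) were lower. MRPS36, in neither class, had 58.4, 54.1 and 37.6 normalized counts in starved cells, against 53.3, 31.7 and 47.0 in Ars cells, which overlapped (limma adjusted p = 0.499). MRPL12, the stalk protein that also binds the mitochondrial RNA polymerase, had 130.3, 136 and 96.1 normalized counts in starved cells, against 176, 199 and 142 in Ars cells (log2 difference −0.51 ± 0.17, limma adjusted p = 0.0177), under the 1.5-fold minimum, and shares 69.5% of its exonic bases with a gene on the same strand. MRPS12, part of the decoding site, had 306, 363 and 403 normalized counts in starved cells, against 304, 295 and 279 in Ars cells (0.28 ± 0.13, limma adjusted p = 0.067).

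Ars cells were compared with the single untreated library by level only, since 1 library has no replicate and gives no test. Of 51 members that averaged 100 or more, 7 were at least 1.5-fold higher in Ars than in untreated cells, beside 15.6% of 6132 genes, and 3 at least 1.5-fold lower, beside 18.4% of genes. All 3 lower members were among the 19 MRPS genes and 6 of the 7 higher among the 32 MRPL genes. The median log2 difference was nevertheless alike, at 0.105 in MRPL and 0.102 in MRPS genes, and a subunit contrast was not tested. MRPS2, a bacterial homolog of the small subunit, had 544, 545 and 540.0 normalized counts in Ars cells, against 1152 in the untreated library (95% exact Poisson interval 1088 to 1218, counting error only). MRPS12 had 304, 295 and 279 normalized counts in Ars cells, against 473 (432 to 516), and MRPS25, a mitochondria-specific protein, had 115, 109 and 119.9, against 176 (151 to 203). MRPS18A followed, with 349.7, 366 and 335 in Ars cells, against 521 (478 to 567), short of the 1.5-fold limit. In each of these 4 genes the Ars libraries lay below the interval of the untreated value.

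In the other direction, MRPL33, a small bacterial homolog, had 152, 112 and 152 normalized counts in Ars cells, against 68.5 in the untreated library (53.6 to 86.2). MRPL43 had 290.3, 273 and 267, against 151 (129 to 177), MRPL51 had 298, 323 and 323, against 173 (149 to 200.1), and MRPL47 had 164, 139 and 199, against 98.0 (80.0 to 119). All Ars values of these genes lay above the interval. MRPL34, too low for this comparison, had 30.4 normalized counts in the untreated library, beside 27.6 to 31.4 in starved and 71.7 to 78.0 in Ars cells, whereas MRPS34 had 382 and MRPL17 265 in the untreated library, within or next to their Ars values. The untreated level therefore resembled starved cells for some of the genes called lower and Ars cells for others.

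**Figure D4:**
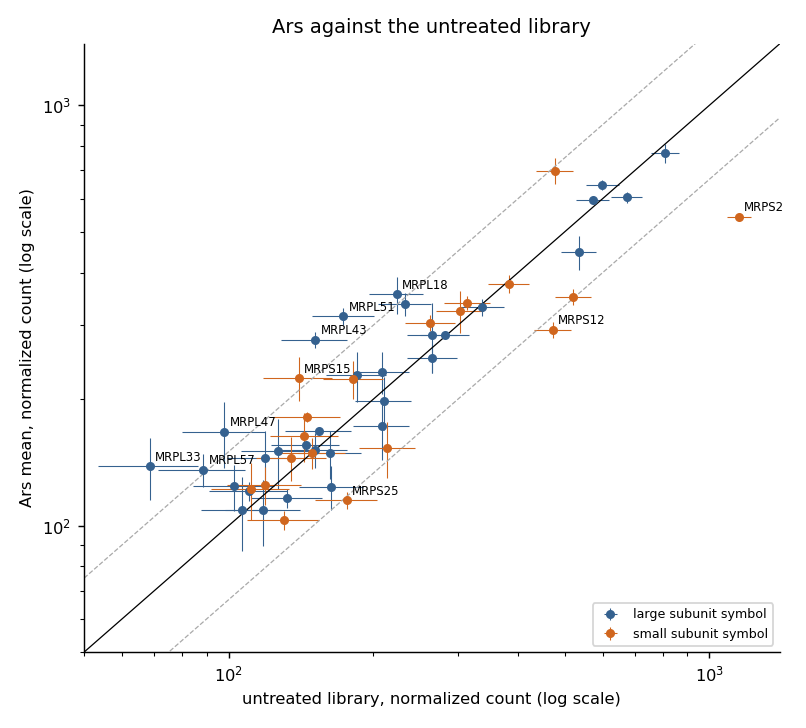
Mean normalized count of 51 members in Ars cells (y axis, log scale, bars for the SD of 3 libraries) against the untreated library (x axis, log scale, bars for the 95% Poisson interval), coloured by subunit symbol. The solid line marks equal values and dashed lines 1.5-fold. The 10 labelled genes lie past 1.5-fold, with MRPS2 the farthest below the line at 1152 untreated normalized counts.

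The counts of the other lists in starved against Ars cells stand beside 21.5% of all genes tested called higher and 21.3% called lower. Among 73 nuclear-encoded respiratory chain and ATP synthase subunits, 0 were called higher and 24 lower in starved than in Ars cells (median log2 difference −0.44). At an unadjusted p under 0.05, 0 were higher and 50 lower, beside 4024 and 3866 of all 12971 genes. ATP5MC3, a subunit of the ATP synthase ring, differed by −1.31 ± 0.12 (limma adjusted p = 2.35e-08) and NDUFB10, of complex I, by −1.29 ± 0.12 (limma adjusted p = 2.77e-08). Of 79 cytosolic ribosomal protein genes, by contrast, 0 were called in either direction (median 0.02, with 8 higher and 5 lower at an unadjusted p under 0.05). In counts and medians the members lay nearer to the respiratory chain genes than to the cytosolic ribosomal protein genes, a likeness that was not tested. It did not extend to the untreated library. Summed respiratory chain levels were 74.9% of the Ars mean in starved cells and 73% in the untreated library, against 83.1% and 98.5% for the members. Cytosolic ribosomal protein genes stood at 99% and 73.2%. The untreated values rest on 1 library.

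Of 9 mitochondrial transcription and replication genes tested, 5 were called higher in starved than in Ars cells and 0 lower (21.5% and 21.3% of all genes), and the other 4 were not called. TFAM, which packages mitochondrial DNA and starts its transcription, had 247, 178 and 232 normalized counts in starved cells, against 139.7, 125 and 131 in Ars cells (log2 difference 0.72 ± 0.13, limma adjusted p = 0.000165). POLRMT, the mitochondrial RNA polymerase, had 975, 1416 and 1477, against 662, 878 and 757 (0.74 ± 0.15, limma adjusted p = 0.00036). For both genes all starved libraries lay above all Ars libraries. Among 30 assembly factors of the mitoribosome, 4 were higher and 2 lower. MTG2, a GTPase of large subunit assembly, had 268, 344 and 327 normalized counts in starved cells, against 148, 152 and 119 in Ars cells (1.16 ± 0.14, limma adjusted p = 7.56e-07), while MALSU1, which keeps the subunits apart during assembly, had 74.1, 68.1 and 57.5, against 124, 97.8 and 106 (−0.71 ± 0.16, limma adjusted p = 0.000817).

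Of 14 translation factors, 1 was called higher and 2 lower in starved than in Ars cells, both counts under the shares of all genes. LRPPRC and SLIRP, partners that bind and stabilize mitochondrial mRNAs, moved in opposite directions: LRPPRC had 616, 433 and 498 normalized counts in starved cells, against 318, 263 and 305 in Ars cells (log2 difference 0.79 ± 0.13, limma adjusted p = 2.97e-05), and SLIRP had 64.0, 68.1 and 43.1, against 116, 89.4 and 123 (−0.91 ± 0.19, limma adjusted p = 0.00059). With glutamine, 2 of the 14 translation factors were called higher than in starved cells and 0 lower, beside 8.45% and 8.52% of all genes. MTIF2, the initiation factor that brings the first tRNA, had 188, 153 and 157 normalized counts in glutamine-recovered cells, against 106, 87.3 and 101 in starved cells (0.76 ± 0.15, limma adjusted p = 0.000925), and GUF1, an elongation-type GTPase, differed by 0.71 ± 0.17 (limma adjusted p = 0.00392).

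Of the 5 mitoribosomal proteins with other names, CHCHD1 alone was called lower in starved than in Ars cells (log2 difference −0.63 ± 0.16, limma adjusted p = 0.00295), beside 21.3% of all genes. In glutamine-recovered against Ars cells 1 of the 5 was called higher and 2 lower, beside 16.5% and 15.3% of all genes. The higher one was DAP3, the small subunit GTPase-like protein (0.62 ± 0.11, limma adjusted p = 0.000193). AURKAIP1 (−0.79) and CHCHD1 (−0.60) were the lower ones. The RNA side of the ribosome was too variable to resolve in libraries depleted of ribosomal RNA: MT-RNR1, the small subunit RNA, had 1603, 3109.8 and 1046 normalized counts in starved cells, against 1088, 1442 and 1513 in Ars cells. Of 13 mRNAs encoded by mitochondrial DNA, 2 were called higher (MT-ND1 and MT-ND3) and 1 lower (MT-ND6) in starved than in Ars cells, also under the shares of all genes. Of 11 regulators known to act on these gene programmes, 6 were called higher and 0 lower, beside 21.5% and 21.3% of all genes. They included MYC, a transcription factor for growth genes, at 2148, 2031 and 2070.5 normalized counts in starved cells, against 277, 279 and 278 in Ars cells (2.90 ± 0.09, limma adjusted p = 2.08e-14), and PPRC1, a coactivator of nuclear genes for mitochondria (1.44 ± 0.12, limma adjusted p = 8.08e-09).

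**Figure D5:**
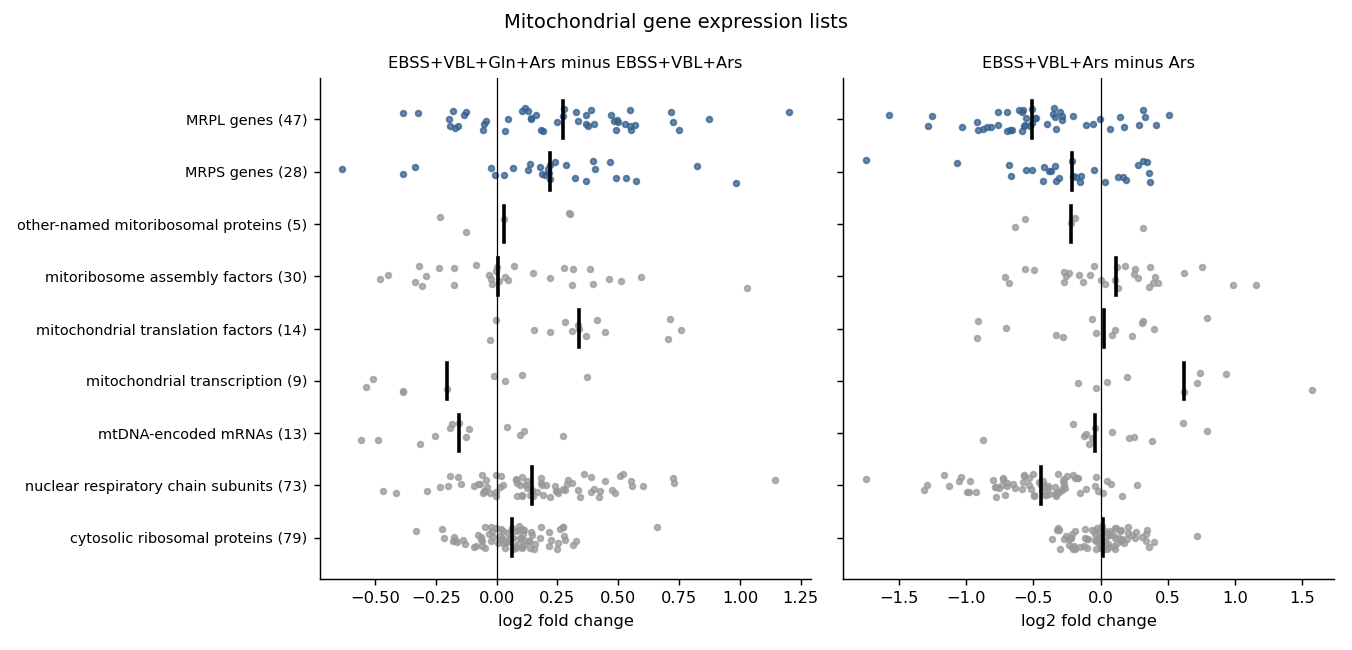
Log2 fold changes (x axis) of the members and of 7 other gene lists, with 1 point a gene, thick bars for medians and the number of genes tested in parentheses, in glutamine-recovered minus starved cells (left) and starved minus Ars cells (right). In the right panel the medians are −0.51 for MRPL genes, −0.21 for MRPS genes, −0.44 for respiratory chain subunits and 0.02 for cytosolic ribosomal proteins.

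Members are short genes. The median transcript length was 1315 bases in the 75 tested, against 3460 in all protein-coding genes tested, and the median GC content 48.0%, against 49%. Across the 75 genes, which are not independent replicates, GC content had a Pearson correlation of −0.41 with the glutamine-recovered minus starved difference and of −0.00 with the starved minus Ars difference. With each library's GC trend removed, 18 of the 21 calls in starved against Ars cells were retained among 20, whereas in glutamine-recovered against starved cells 4 of the 8 were retained among 8, and MRPL19, MRPL47, MRPL13 and MRPS18A were the 4 lost. Exons of 40 of the 78 members overlap an exon of another gene in the table, 16 of them on the same strand, and 12 of the 21 called lower do so, 3 on the same strand. Pseudogenes with an MRP symbol, 76 in the table, summed to 8.99 to 15.8 normalized counts a library, little beside the members.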

How the data were processed

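RNA from 10 U2OS libraries was sequenced as single reads after ribosomal RNA depletion. Per the study's methods and the submitters' processing notes, the authors aligned reads with STAR to hg38, made gene counts with HTSeq and normalized these with DESeq2. Tool versions and the strand setting are not given in the sources used here. Deposited signal values are the authors' normalized counts, that is, gene counts divided by a size factor per library. Whole reads were recovered from the step between low values, 100% of values being whole within 0.01. Columns of every library matched a sample. Groups were taken from the sample labels.

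Values were compared with limma 3.58.1 in R 4.3.3 on log2 of the normalized count plus 1, in genes with a mean of at least 10 over the 9 replicated libraries (12971 genes), with a shared spread over the 3 groups and Benjamini-Hochberg adjustment over all genes tested. Calls required an adjusted p under 0.05 together with a difference of 1.5-fold or more. The test was checked on simulated counts. edgeR 4.0.16 and DESeq2 1.42.0 on recovered reads were alternatives, with other pseudocounts, filters, scalings, GC and length corrections, a replicate block and each library left out. Replicate libraries differed beyond sampling noise. Same-numbered libraries of different groups correlated between -0.06 and 0.31 in their deviations, with 4 of 9 pairs over 0.1, so numbers were not taken as pairs.

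Members and lists were chosen with earlier results of these data known. Per-library values are given for up to 8 called members with the largest change each way per comparison, the 3 highest and 3 lowest members, those not tested, 9 members with a role of their own (MRPL12, MRPL58, MRPS12, MRPS36, MRPL41, MRPS30, MRPS18A, MRPS18B and MRPS18C), up to 4 genes with the smallest p of each other list and, against the untreated library, the 4 largest differences each way. MRPL38 and the markers ALPL, SPARC and KRT18 were named after their values were seen. So were the neighbouring genes EME2, NDUFB5, SKA3, SEMA4G, PELI3, MTBP, GCFC2, ABHD8, ACTL6A, NCAPD2 and OAZ3. Positions are from GENCODE v44 (GRCh38), in which all 78 members matched by ID and symbol, and promoters from RefSeq (GRCh38.p14).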

Additional observations from a re-analysis of the deposited data

How the results depend on the processing

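Members called in either direction in starved against Ars cells numbered 21, all lower, and in the alternatives between 18 and 25 except where given here. Equal library totals gave 35, equal totals over nuclear protein-coding genes 33, no minimum fold 40 (4 higher and 36 lower) and a minimum fold of 2 gave 6, while leaving out 1 library gave 17 to 29. Calls in the higher direction appeared with no minimum fold, with the length trend removed (1 higher and 17 lower) and without starved replicate 1 (1 higher and 28 lower). In glutamine-recovered against starved cells, where 8 were called, the same settings gave 31, 23, 21 and 1, and leaving out 1 library gave 5 to 20, with 20 without starved replicate 1, 15 without glutamine-recovered replicate 2 and 5 without glutamine-recovered replicate 1. In glutamine-recovered against Ars cells, where 8 were called, no minimum fold gave 26 and a minimum fold of 2 gave 1, and the cause of these changes was not tested beyond the settings' own construction. Equal library totals moved the median of all genes to -0.16, 0.29 and 0.12 in the 3 comparisons. Replicate block fits gave 21, 8 and 8 calls, the same genes as without the block, and no call changed. Directions were checked only in up to 8 called members with the largest change each way per comparison, and no alternative turned one of these. Of their values under the alternatives, 29 fell below the threshold and 496 did not change side. The split of calls in glutamine-recovered against Ars cells did change, from 2 higher and 6 lower to 4 higher and 3 lower with equal library totals. Depth limits the lowest members, MRPL53, MRPS24 and MRPL46. MRPL53 and MRPL46 entered only the fit without a filter. MRPS24 was called higher in glutamine-recovered than in Ars cells in that fit. It also entered the fit of glutamine-recovered and starved cells alone, where it was not called.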
